A study of Mus musculus with 6 samples.

Results

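The Schlafen (*Slfn*) family is described here by 7 genes, *Slfn1*, *Slfn2*, *Slfn3*, *Slfn4*, *Slfn5*, *Slfn8* and *Slfn9*. They were found by mapping Ensembl gene identifiers to mouse symbols in the count tables of 6 libraries, and all 7 were among the 54532 identifiers listed. Another 4 genes of the annotation carry a *Slfn* name, the pseudogene *Slfn10-ps*, the antisense gene *Slfn5os*, *Slfn14* and *Slfnl1*.

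Schlafen proteins are found in vertebrates, and several of their genes are induced by type I interferon. They fall into a short class (*Slfn1* and *Slfn2*) with the core domain alone, an intermediate class (*Slfn3* and *Slfn4*) with a further linker region, and a long class (*Slfn5*, *Slfn8* and *Slfn9*) that also carries a helicase-like domain. Members are known for restraining the growth of T cells and myeloid cells and for binding or cutting tRNA, and cDC1s, the dendritic cells that cross-present antigen, respond to interferon.

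RNA was sequenced from cDC1s grown from bone marrow of 2 genotypes, with 3 libraries each, to compare their transcription. One was *c-Jun/JunB* fl/fl, titled WT, with no Cre named in its label. The other carried the same floxed alleles with *Itgax*-Cre, is titled KO and is written *c-Jun/JunB* Δ/Δ *Itgax*-Cre by the study (fl/fl and Δ/Δ from here on). Marrow was cultured with 80 ng/mL FLT3L, the cytokine that drives dendritic cell development, for 8 days, and cells positive for CD24 and CD11c and negative for B220, CD115 and CD172a were sorted. Per the methods, mice of both sexes aged 8 to 16 weeks on a mixed 129 Sv and C57BL/6 background were used. The sex, age and strain share behind each culture are not stated, so effects of these and of genotype cannot be told apart. The Cre is driven by the promoter of *Itgax*, which encodes CD11c, so deletion begins only in cells that express it. The study describes the sequenced samples as individual mice, without saying which were littermates or cultured together, and p-values measure the spread between these libraries. Reads on genes numbered 25860931, 26788296 and 23666519 in fl/fl 1, 2 and 3 and 24429016, 21693217 and 22874838 in Δ/Δ 1, 2 and 3. Levels are given as CPM, counts scaled by library size with edgeR's TMM factors, and levels of Schlafen genes are ranked per kb of exon. Sums, shares of a sum and the leading gene of a marker list are by CPM, which also depends on gene length.

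The targeted genes came first as a check of the labels. *Junb* stood at 315 CPM in fl/fl 1, 274 in fl/fl 2 and 413 in fl/fl 3, against 110.4 in Δ/Δ 1, 171 in Δ/Δ 2 and 212 in Δ/Δ 3. The groups did not overlap, although the difference was not called (log2 fold change −1.02 with standard error 0.247, edgeR adjusted p = 0.0729). It passed 0.05 by DESeq2 (0.0203), with no filter (0.0161), with a replicate block (0.0370) and without Δ/Δ 1 (0.0359, log2 fold change −0.80), in a range of 0.0161 to 0.228. *Jun* stood at 70.9, 52.5 and 63.1 CPM across fl/fl 1 to 3 and at 48.2, 44.3 and 60.5 CPM across Δ/Δ 1 to 3, with overlap (log2 fold change −0.29, edgeR adjusted p = 0.345). The deleted bases are not stated, and reads counted over a whole gene are no measure of deletion. The study itself reports deletion of both genes by RT-qPCR in cDC1s sorted from spleen and lymph nodes of *Itgax*-Cre mice. It also measured both transcripts by RT-qPCR in cDC1s sorted from FLT3L cultures. *Itgax* itself, looked at after its values were seen, fell from 131 ± 20.0 to 56.3 ± 12.2 CPM (SD, n = 3 each; log2 fold change −1.22, edgeR adjusted p = 0.0147). That call ended without fl/fl 1 (adjusted p 0.0526), fl/fl 2 (0.0781) or fl/fl 3 (0.0505), in a range from 5e-11.

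The 7 genes lie on chromosome 11 within 263.8 kb (GRCm38). Going along the chromosome, as GENCODE M21 has it, the order starts with *Slfn5* (ENSMUSG00000054404.13, 82951349 to 82964840), *Slfn9* (ENSMUSG00000069793.12, 82978390 to 82991830) and *Slfn8* (ENSMUSG00000035208.16, 83002158 to 83020810). *Slfn2* (ENSMUSG00000072620.3, 83065112 to 83070678) and *Slfn1* (ENSMUSG00000078763.2, 83116849 to 83122670) come next, before *Slfn4* (ENSMUSG00000000204.16, 83175186 to 83190216) and *Slfn3* (ENSMUSG00000018986.10, 83191330 to 83215154). *Slfn8* and *Slfn9* are on the minus strand and the others on the plus strand. Coding length follows the classes, with 1014 bases in *Slfn1*, 1137 in *Slfn2*, 1809 in *Slfn4*, 1923 in *Slfn3*, 2655 in *Slfn5* and 2733 in both *Slfn8* and *Slfn9*. A pair of neighbours in each of the longer classes is nearly alike in coding sequence, *Slfn3* and *Slfn4* with 92.2% identity over 1788 aligned bases and *Slfn8* and *Slfn9* with 92.7% over 2733. *Slfn1* and *Slfn2* share 71.0% over 1005 bases.

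Counts rest on uniquely mapped reads, so reads of near copies can be lost or depend on single mismatches. Of all 75-base windows (the read length) in the transcripts of each gene, the share also found in another gene was 0% for *Slfn1*, 1.70% for *Slfn2*, 3.12% for *Slfn4*, 5.90% for *Slfn9*, 6.78% for *Slfn3*, 6.99% for *Slfn8* and 8.22% for *Slfn5*. The genes sharing them were each other and *Slfn10-ps* for *Slfn8* and *Slfn9*, each other and the pseudogene *Gm11427*, among others, for *Slfn3* and *Slfn4*, *Slfn4* for *Slfn2*, and the antisense *Slfn5os*, among others, for *Slfn5*. Windows were matched on either strand, and *Slfn5os* (82942341 to 82960681, minus strand) overlaps *Slfn5*. Windows that these genes share can therefore be the same stretch of the genome rather than near copies, and reads there can still map uniquely. The strand column that was counted is not stated, so reads of *Slfn5* and *Slfn5os* may be mixed.

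Per kb of exon, *Slfn2* was the highest member in fl/fl at 189 ± 10.8 CPM per kb and *Slfn5* next at 100.8 ± 2.10 (SD, n = 3). They exceeded 98.4% and 96.8% of the 12894 genes tested. *Slfn8* followed at 13.6 ± 1.35 CPM per kb, then *Slfn3* at 2.80 ± 0.395 and *Slfn9* at 2.72 ± 0.873, whose libraries overlapped. *Slfn1* lay at 0.476 ± 0.0207 and *Slfn4* at 0.0285 ± 0.0494 CPM per kb. In Δ/Δ the order began in the same way, with *Slfn2* at 129 ± 11.1, *Slfn5* at 89.0 ± 13.3 and *Slfn8* at 9.83 ± 1.18 CPM per kb. *Slfn9* (0.711 ± 0.541) and *Slfn3* (0.546 ± 0.0245) again overlapped, and so did *Slfn1* (0.136 ± 0.142) and *Slfn4* (0.00741 ± 0.0128). All other neighbours in either order were apart in every library.

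**Figure D1:**
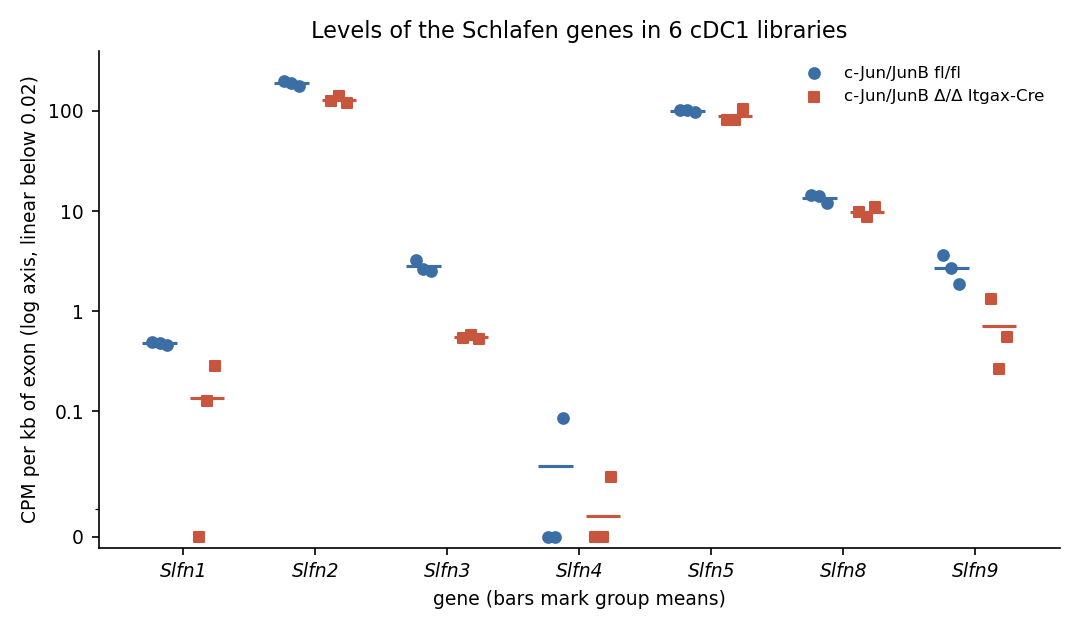
Level of each Schlafen gene in CPM per kb of exon (log axis, linear below 0.02) in 3 fl/fl (circles) and 3 Δ/Δ libraries (squares), with group means as bars. *Slfn2* and *Slfn5* stand above all other members in each library, and *Slfn4* is at 0 in 4 of 6 libraries.

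edgeR's quasi-likelihood test was run on the 12894 genes with enough reads, and p-values were adjusted over them by Benjamini-Hochberg. Called means an adjusted p below 0.05 together with an absolute log2 fold change of 1 or more. Of the 7 members 6 passed the filter on low counts and *Slfn4* did not. One member, *Slfn3*, was called, lower in Δ/Δ, beside 1.86% of all tested genes called in either direction and 0.869% called lower. An adjusted p under 0.05 with a lower level was reached by 2 members, *Slfn2* and *Slfn3*, and by 1.85% of tested genes. In 5 members every Δ/Δ library lay below every fl/fl library, as in 12.3% of tested genes, and the exceptions were *Slfn5* and *Slfn4*. Fitted log2 fold changes of the 6 were below 0, as were those of 49.7% of tested genes, and stayed so under each alternative scaling, test, filter and left-out library that was run, except that the stricter filter dropped *Slfn1*. In sorted bulk cells, less RNA per cell and fewer cells that express a gene cannot be told apart.

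**Figure D2:**
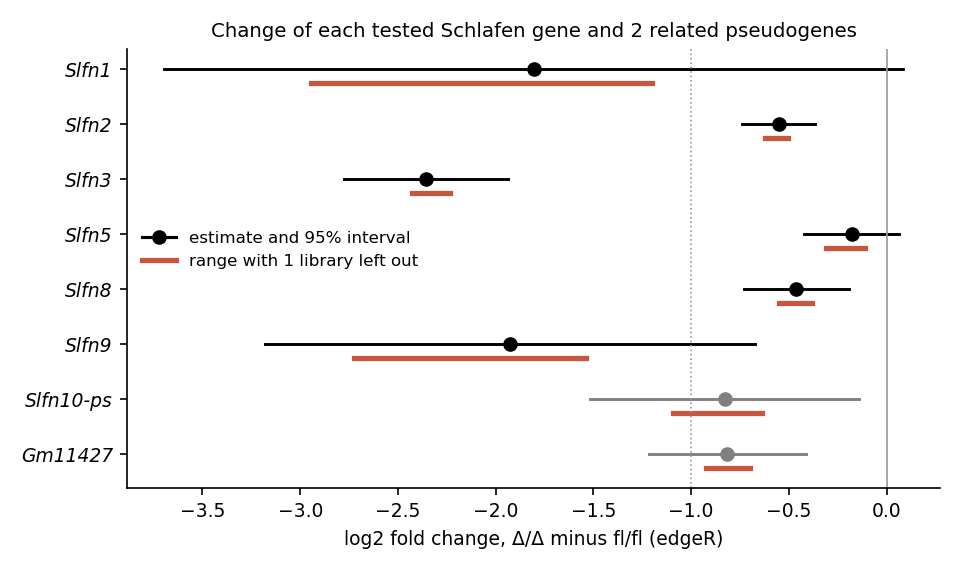
Log2 fold change (Δ/Δ minus fl/fl) of the 6 tested Schlafen genes (black) and 2 related pseudogenes (grey) with edgeR 95% intervals; red bars give the range when 1 of the 6 libraries is left out, and the dotted line marks −1. *Slfn3* alone is called, while *Slfn1* and *Slfn9* have estimates near −2 with wide intervals.

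*Slfn1*, the founding member, known for slowing T cell growth when overexpressed, was read at a low level. It had 24, 24 and 20 reads in the fl/fl libraries and 0, 5 and 12 in Δ/Δ 1, 2 and 3, which is 0.926, 0.890 and 0.848 CPM against 0, 0.233 and 0.529 CPM. All Δ/Δ libraries were below the fl/fl libraries, and they spread widely among themselves. For the library without reads, 3 reads or 0.122 CPM is the most that counting error allows. The log2 fold change was −1.81 (95% interval −3.70 to 0.083, edgeR adjusted p = 0.276), and between −2.95 without Δ/Δ 3 and −1.20 without Δ/Δ 1. Pooled reads gave 0.889 CPM in fl/fl (Poisson 95% interval 0.691 to 1.13) and 0.247 CPM in Δ/Δ (0.144 to 0.396), which cover counting error only.

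*Slfn2*, the short member that keeps T cells quiescent and shields tRNA from cleavage, had 332, 316 and 296 CPM across fl/fl 1 to 3 and 207, 236 and 201 CPM across Δ/Δ 1 to 3. The lowest fl/fl library stood well above the highest Δ/Δ library. The mean fell from 315 ± 18.0 to 215 ± 18.5 CPM, 68.3% of the fl/fl level (SD, n = 3; log2 fold change −0.55, 95% interval −0.74 to −0.36, edgeR adjusted p = 0.0154). Its adjusted p rose over 0.05 without fl/fl 1 (0.0990) or fl/fl 2 (0.0984) and ran from 1.28e-06 to 0.0990 over all alternatives.

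*Slfn3*, an intermediate member known for its part in differentiation of the gut epithelium, had 11.1, 8.97 and 8.61 CPM across fl/fl 1 to 3 and 1.83, 1.96 and 1.81 CPM across Δ/Δ 1 to 3. The Δ/Δ libraries were nearly equal and the lowest fl/fl library stood far above all of them. The mean fell from 9.56 ± 1.35 to 1.86 ± 0.0836 CPM, a 5.13-fold difference (SD, n = 3; log2 fold change −2.36, standard error 0.179, 95% interval −2.78 to −1.94, edgeR adjusted p = 0.00176). It was called under each of the 12 alternatives, with a log2 fold change between −2.43 and −2.24.

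*Slfn4*, the intermediate member known from activated macrophages and other myeloid cells, had 8 reads in fl/fl 3, 2 reads in Δ/Δ 3 and none in the other 4 libraries. Pooled over 3 libraries these are 0.105 CPM (Poisson 95% interval 0.0452 to 0.206) in fl/fl and 0.0291 CPM (0.00352 to 0.105) in Δ/Δ. A difference was not detectable at this depth, and the gene was not tested (edgeR with no filter gave an adjusted p of 0.670).

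The stretches before the starts of *Slfn3* and *Slfn4* are shown because these near-identical coding genes lie next to each other and stood far apart in level in fl/fl. Both are the 160 bases before the RefSeq start (GRCm38.p6, plus strand), chr11:83191170-83191329 for *Slfn3* and chr11:83175026-83175185 for *Slfn4*, and lie outside all annotated exons. That of *Slfn2*, chr11:83064952-83065111 on the plus strand, is given beside them.
Slfn3: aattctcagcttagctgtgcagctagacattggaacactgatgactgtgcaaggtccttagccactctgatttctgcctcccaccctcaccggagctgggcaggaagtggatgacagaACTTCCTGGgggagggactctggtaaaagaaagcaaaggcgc
Slfn4: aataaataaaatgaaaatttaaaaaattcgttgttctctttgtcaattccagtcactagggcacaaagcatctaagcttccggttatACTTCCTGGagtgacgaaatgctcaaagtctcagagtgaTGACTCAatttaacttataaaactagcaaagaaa
Slfn2: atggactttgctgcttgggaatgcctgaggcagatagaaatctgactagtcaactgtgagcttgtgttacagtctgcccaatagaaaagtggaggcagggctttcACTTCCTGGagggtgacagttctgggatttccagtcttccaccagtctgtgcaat
Capitals mark motif matches on either strand. The run ACTTCCTGG, noticed in these sequences after they were read, occurs before *Slfn1*, *Slfn2*, *Slfn3* and *Slfn4*, from base −74 to base −34 counted from the start, and in 0.843% of 32851 promoter windows of 300 bases. The AP-1 motif TGANTCA, the element bound by Jun dimers, was found before *Slfn4* from base −34 to −28 and before the RefSeq starts of none of the other 6 members, and is present in 7.81% of windows. Its cyclic AMP variant TGACGTCA (1.79% of windows) had no match before any of the 7. The upstream stretches of *Slfn3* and *Slfn4* were 55.3% identical over 123 aligned bases, far less than their coding sequences. A match of letters does not show binding.

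*Slfn5*, a long and nuclear member, had 642, 648 and 623 CPM across fl/fl 1 to 3 and 510.0, 519 and 660 CPM across Δ/Δ 1 to 3. Δ/Δ 1 and 2 were below the fl/fl libraries and Δ/Δ 3 was above them, so the groups overlapped. The means were 638 ± 13.3 and 563 ± 84.3 CPM (SD, n = 3; log2 fold change −0.18, 95% interval −0.42 to 0.062, edgeR adjusted p = 0.390). Without Δ/Δ 3 the adjusted p was 0.0404 and the log2 fold change −0.31, in a range of adjusted p from 0.0404 to 0.653 over the alternatives.

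*Slfn8*, a long member known from T cells and macrophages, had 59.6, 57.6 and 49.1 CPM across fl/fl 1 to 3 and 40.1, 35.5 and 45.1 CPM across Δ/Δ 1 to 3. The groups did not overlap, with fl/fl 3 and Δ/Δ 3 nearest to each other. The log2 fold change was −0.46 (95% interval −0.73 to −0.19), with an edgeR adjusted p of 0.0770. DESeq2 gave 0.00970 and edgeR with no filter on low counts 0.0439, in a range of 0.00970 to 0.281.

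*Slfn9*, its close copy, had 21.6, 15.9 and 11.2 CPM across fl/fl 1 to 3 and 7.83, 1.59 and 3.30 CPM across Δ/Δ 1 to 3. The groups did not overlap, and both spread more than those of *Slfn8*, with Δ/Δ 1 far above Δ/Δ 2. The means were 16.2 ± 5.21 and 4.24 ± 3.23 CPM (SD, n = 3; log2 fold change −1.93, 95% interval −3.18 to −0.67, edgeR adjusted p = 0.102). It was called with no filter on low counts (adjusted p 0.0315) and without Δ/Δ 1 (0.00913, log2 fold change −2.72), in a range of 0.00913 to 0.335.

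Reads of *Slfn9* per read of *Slfn8*, a ratio that does not depend on scaling, were 0.363, 0.276 and 0.228 in fl/fl 1, 2 and 3 and 0.195, 0.0447 and 0.0732 in Δ/Δ 1, 2 and 3. Each Δ/Δ ratio was below each fl/fl ratio, though fl/fl 3 and Δ/Δ 1 were close. The difference between the log2 fold changes of the 2 genes was not tested. Likewise *Slfn3* per *Slfn2* was 0.0335, 0.0284 and 0.0291 in fl/fl against 0.00881, 0.00831 and 0.00897 in Δ/Δ. The pair *Slfn8* and *Slfn9* is given as the 160 bases before the outermost RefSeq start (GRCm38.p6, minus strand, outside annotated exons), chr11:83020811-83020970 and chr11:82991831-82991990.
Slfn8: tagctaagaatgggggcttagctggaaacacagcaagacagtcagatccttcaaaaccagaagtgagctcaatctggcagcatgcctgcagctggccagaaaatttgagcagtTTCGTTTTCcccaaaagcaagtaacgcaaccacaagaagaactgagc
Slfn9: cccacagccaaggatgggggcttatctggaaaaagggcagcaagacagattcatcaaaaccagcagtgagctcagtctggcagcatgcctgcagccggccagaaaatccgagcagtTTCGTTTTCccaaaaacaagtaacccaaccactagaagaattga
These stretches were 89.5% identical over 153 aligned bases. Capitals mark a match to GAAANNGAA, letters like those of the interferon-stimulated response element, on the other strand. It lies from base −47 to −39 before *Slfn8* and from −44 to −36 before *Slfn9*, with the same 9 letters. Among the 7 members it had 2 further matches before the RefSeq start of *Slfn5*, which lies 753 bases inside the GENCODE gene, so these are not upstream of the gene as placed above. The motif occurs in 8.56% of the 32851 windows. The members with it in their RefSeq windows, *Slfn5*, *Slfn8* and *Slfn9*, had log2 fold changes of −0.18, −0.46 and −1.93. *Slfn2* and *Slfn3*, which reached an adjusted p under 0.05, had no match in these windows. Any relation of the motif to these changes was not tested.

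Summed over the 7 genes the family held 1067, 1047 and 989 CPM across fl/fl 1 to 3 and 767, 794 and 912 CPM across Δ/Δ 1 to 3. *Slfn5* and *Slfn2* together made up 91.3 to 92.9% of this sum in fl/fl and 93.5 to 95.1% in Δ/Δ. The share of *Slfn3* was 0.857 to 1.04% in fl/fl and 0.198 to 0.247% in Δ/Δ. Without *Slfn5* the sums were 425, 399 and 366 CPM against 257, 275 and 252 CPM, and those of Δ/Δ were closer together than those of fl/fl.

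Other genes with a *Slfn* name added little. *Slfn10-ps*, whose sequence is 91.9% identical to *Slfn9* over 3533 bases, had 2.39, 2.22 and 2.25 CPM over fl/fl 1 to 3 and 0.933, 1.21 and 1.72 CPM across Δ/Δ 1 to 3. Its groups did not overlap (log2 fold change −0.83, edgeR adjusted p = 0.184). *Slfn5os* ranged from 0.339 to 0.887 CPM over fl/fl 1 to 3 and from 0.487 to 1.01 CPM in Δ/Δ (log2 fold change 0.18, edgeR adjusted p = 0.870; −0.14 without fl/fl 3 and −0.030 without Δ/Δ 3). *Slfn14* and *Slfnl1* had no reads, which allows up to 0.0207 CPM over the 6 libraries pooled.

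Genes around the cluster were looked at next, because the members share a locus. Of 57 other annotated genes within 500 kb of the outermost members 20 were tested, and edgeR called 0 of them. At an unadjusted p under 0.05 there were 3 lower and 2 higher, beside 1169 lower and 1327 higher of all 12894 tested genes. DESeq2 called 2 (*Heatr9* lower, *Wfdc17* higher) and limma-voom 0. Their median log2 fold change was 0.046, beside 0.0020 over all tested genes. The 3 nearest tested genes before *Slfn5*, *Nle1*, *Rad51d* and *Rffl*, had log2 fold changes of 0.067, 0.025 and 0.22, with an edgeR adjusted p of 0.425 or more. After *Slfn3* the nearest were *AI662270* at −0.16, *Gm11427* at −0.82 and *AA465934* at −0.19. *Rad51d* turned to −0.0070 without fl/fl 1 and −0.038 without Δ/Δ 3, and *AA465934* to 0.095 without Δ/Δ 2.

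*Gm11427*, a transcribed pseudogene 9.3 kb beyond *Slfn3*, is itself Schlafen-like, with 92.0% identity to *Slfn4* over 1680 bases. It had 8.95, 8.34 and 7.85 CPM across fl/fl 1 to 3 and 4.87, 5.46 and 3.96 CPM across Δ/Δ 1 to 3. The groups were apart (log2 fold change −0.82, edgeR adjusted p = 0.0494, 0.00565 to 0.218 over the alternatives). A replicate block raised the adjusted p to 0.0715, and leaving out a library raised it over 0.05 for fl/fl 1 (0.218), fl/fl 2 (0.193), fl/fl 3 (0.126) and Δ/Δ 3 (0.0960). Of its 75-base windows 19.4% occur in another gene, among them *AI662270*, which it overlaps on the same strand and which stood at 57.3 to 73.1 CPM, and *Slfn3* and *Slfn4*, so its reads are partly uncertain. Farther out, *Ccl5*, named after its values were seen, had 114, 73.3 and 108 CPM over fl/fl 1 to 3 and 4.99, 53.6 and 20.8 CPM across Δ/Δ 1 to 3 (log2 fold change −1.90, edgeR adjusted p = 0.194, and called without Δ/Δ 2 at 0.0355, log2 fold change −2.94, in a range up to 0.453). The nearest called gene outside the family was *Lgals9*, 3.97 Mb away.

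**Figure D3:**
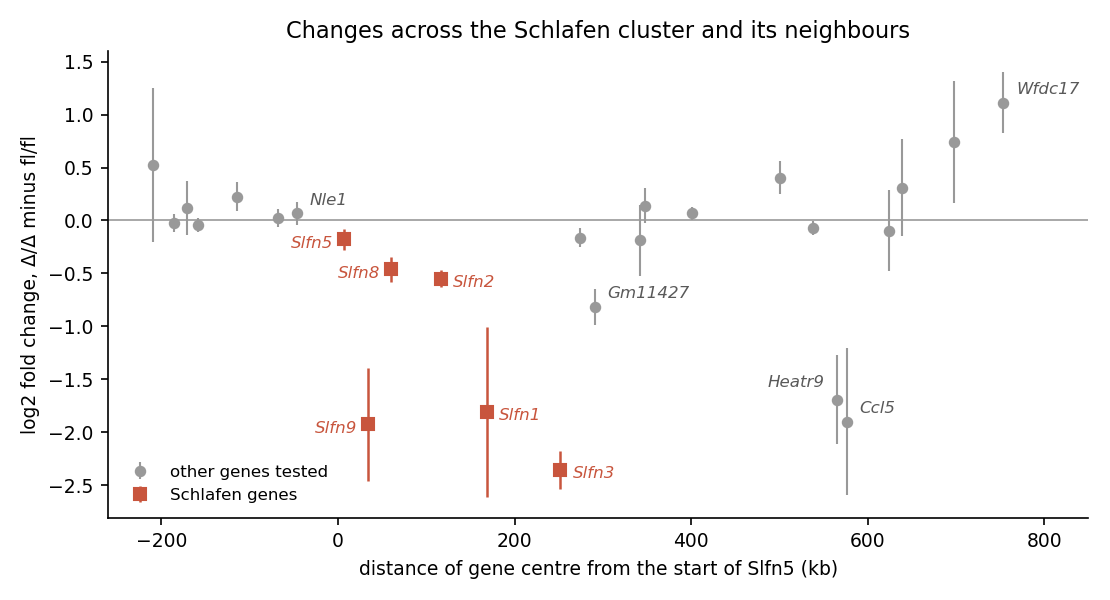
Log2 fold change (Δ/Δ minus fl/fl, with standard error) of tested genes against the distance in kb of their centre from the start of *Slfn5*. Schlafen genes (red squares) and the Schlafen-like *Gm11427* lie below 0, while *Nle1*, *Rad51d* and *Rffl* before the cluster are at 0.025 to 0.22. Of 20 tested neighbours, *Gm11427* among them, 9 had a value below 0 and 11 above.

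The interferon pathway was described by role, since several Schlafen genes are interferon-induced. Of 10 listed ligands, among them *Ifnb1*, *Ifng* and 5 *Ifna* genes, none had a read in any library, which allows up to 0.0207 CPM over the 6 pooled. All 6 receptor genes were tested, 3 with a log2 fold change below 0 and 3 above, their median was 0.024, and edgeR called 0 (0 also at an unadjusted p under 0.05, and 0 by DESeq2 and limma-voom). Of 9 transducers 1 was called, *Irf7*, the amplifying transcription factor of the pathway, and the list's median was 0.093. *Irf7* fell, with 113, 94.0 and 77.1 CPM across fl/fl 1 to 3 and 24.6, 27.3 and 45.3 CPM across Δ/Δ 1 to 3 (log2 fold change −1.54, edgeR adjusted p = 0.0209). Of 5 inhibitors *Usp18*, the feedback inhibitor at the receptor, was called lower (log2 fold change −1.34, edgeR adjusted p = 0.0177). *Irf7* was not called with a replicate block (adjusted p 0.0508). Without fl/fl 1 or fl/fl 2 neither *Irf7* nor *Usp18* was called, with adjusted p of 0.110 and 0.105 for *Irf7* and 0.0939 and 0.103 for *Usp18* (lowest 1.82e-10 and 1.62e-09, by DESeq2).

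Of 42 listed interferon targets 39 were tested, 35 of them with a log2 fold change below 0, beside 49.7% of all tested genes. edgeR called 12 lower and 1 higher, beside 0.869 and 0.993% of all tested genes. Their median log2 fold change was −0.82, beside 0.0020 over all genes (−1.18 with limma-voom, −1.13 with a replicate block, −0.96 without fl/fl 3 and −1.14 without Δ/Δ 2), and in 29 of 39 every Δ/Δ library was below every fl/fl library, beside 12.3% of all tested genes. If fl/fl 1 or fl/fl 2 was left out edgeR called 2 targets, *Oas2* and *Ifi44l*, and 8 when fl/fl 3 was. With a replicate block it called 8, having lost *Ifit2*, *Oas1a*, *Oas3*, *Oasl2*, *Ddx58* and *Xaf1* and gained *Ly6a* (the genes outside the naming rule were named after their values were seen). Among the largest changes, *Rtp4* had a log2 fold change of −2.97, *Oas1a* of −2.81, *Oas2* of −2.77 and *Oas3* of −2.40, close to or beyond that of *Slfn3*. The called target that was higher, *Ifi44l*, had no reads in fl/fl and 75.8, 44.9 and 43.3 CPM across Δ/Δ 1 to 3. Against 3 reads pooled over fl/fl it was at least 1390-fold higher; the median, a matter of rank, is the same by construction with this bound as with the fitted value. This list was chosen with earlier results of these data known, and the study had already reported lower antiviral genes in these libraries. Its shares beside those of all genes are a description and no independent test. The change of the Schlafen genes was not tested against that of the targets.

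**Figure D4:**
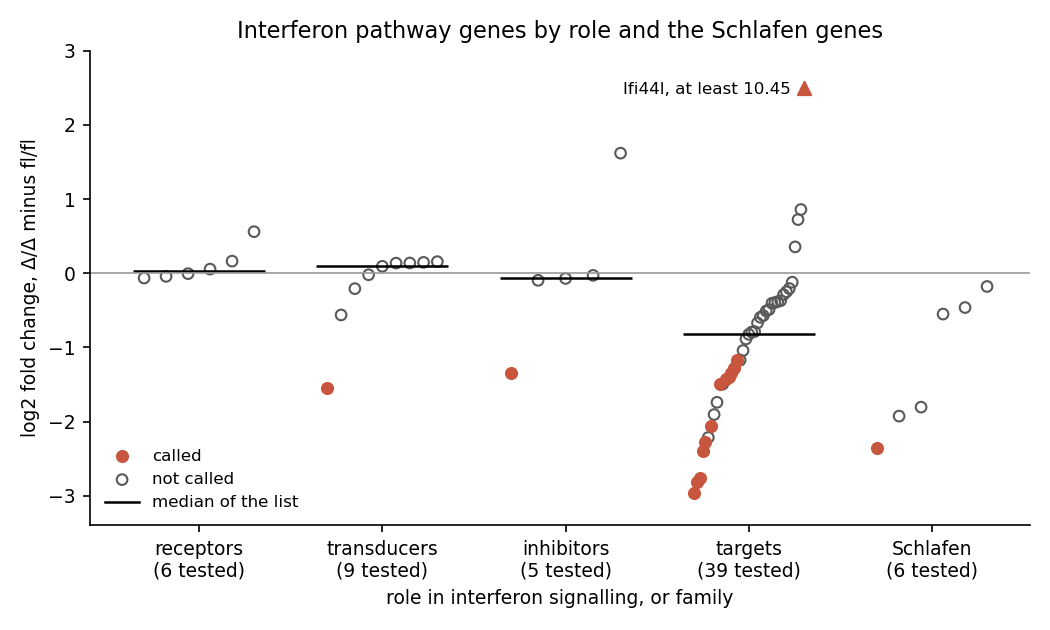
Log2 fold change (Δ/Δ minus fl/fl) of tested interferon receptors, transducers, inhibitors, targets and Schlafen genes; filled points are called and bars are list medians. Receptors and transducers centre near 0 (medians 0.024 and 0.093), targets at −0.82, and *Ifi44l* is drawn as a triangle at the top because its bound of 10.45 lies beyond the axis.

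Profiles over the 6 libraries set the members apart. On log2 CPM centred on each gene's mean (prior count 2), the nearest pair among the 6 tested members was *Slfn5* and *Slfn8*, with a root mean square difference of 0.168, then *Slfn2* and *Slfn8* with 0.178. *Slfn8* and *Slfn9* differed by 1.06 and *Slfn1* and *Slfn9* by 1.41, the farthest pair of these 6. *Slfn4* was left out for its few reads. Outside the family, the tested genes nearest to each member over the 6 libraries were *Cep126*, *Gm12250* and *Tenm4* for *Slfn1* (0.174 to 0.316) and *Ppt1*, *Ifi205* and *Calu* for *Slfn2* (0.037 to 0.059). For *Slfn3* they were *Pianp*, *Naip3-ps1* and *Tgtp2* (0.215 to 0.283), and for *Slfn5* *Smg9*, *Zfp180* and *Nek4* (0.035 to 0.044). *Slfn8* was nearest to *Rtl8b*, *Mx2* and *Sp100* (0.051 to 0.060) and *Slfn9* to *Serpinb8*, *Ly6a* and *Shroom4* (0.277 to 0.345). Of these 18 genes *Mx2*, *Sp100* and *Ly6a* are on the list of interferon targets, as are 39 of all 12894 tested genes. The list holds 42 chosen genes, so the count among the 18 depends on that choice.

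**Figure D5:**
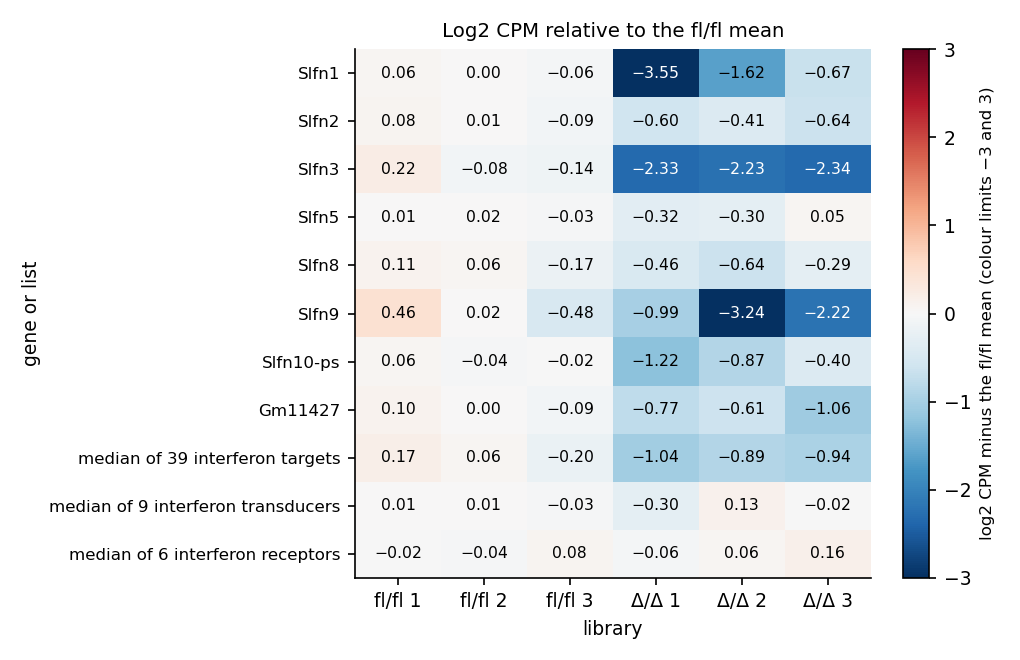
Log2 CPM (prior count 2) of each gene minus its fl/fl mean, by library, with medians over the interferon lists. *Slfn3* is between −2.34 and −2.23 in all Δ/Δ libraries, *Slfn1* and *Slfn9* vary among them (−3.55 to −0.67 and −3.24 to −0.99), and *Slfn5* is 0.051 in Δ/Δ 3.

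The other AP-1 subunits and genes of tRNA handling, the latter as partners of Schlafen function, were read as well. Of 8 tested AP-1 genes other than *Jun* and *Junb* the median log2 fold change was 0.29, and of 6 tested tRNA genes it was −0.092. edgeR called none in either list. An unadjusted edgeR p under 0.05 was reached by 2 genes of the AP-1 list, both higher, and by 1 of the tRNA list, lower. Of all 12894 tested genes 1169 reached it lower and 1327 higher. DESeq2 called 1 and 0 (*Fosb*, higher, named after its values were seen) and limma-voom 0 and 0.

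Markers of the sorted cells and of others were read beside these results. cDC1 markers summed to 10860, 10940 and 10650 CPM over fl/fl 1 to 3 and 8555, 10420 and 9085 CPM across Δ/Δ 1 to 3, led by *Wdfy4* at 2767 to 3788 CPM. Of the 10, *Xcr1* was called lower (log2 fold change −1.42, edgeR adjusted p = 0.00812, not called at 0.0569 without fl/fl 1 or at 0.0501 without fl/fl 2, lowest 4.32e-16 by DESeq2), and 2 others, also lower, reached an adjusted p under 0.05. In all, 6 of the 10 had a log2 fold change below 0 and 4 above. Among the higher ones 1 reached an unadjusted edgeR p under 0.05, *Cadm1* (log2 fold change 0.32, named after its values were seen). cDC2 markers summed to 224, 247 and 369 CPM over fl/fl 1 to 3 and 516, 605 and 749 CPM in Δ/Δ, with *Cd209a*, their most abundant gene by the mean of the 6 libraries but not in fl/fl alone, called higher of 8 (log2 fold change 2.25, edgeR adjusted p = 0.00556). Of these 8, 5 were higher at an unadjusted p under 0.05 and 2 at an adjusted p under 0.05, and DESeq2 called 2. Monocyte markers summed to 2451 to 2872 CPM over fl/fl 1 to 3 and 3467 to 4307 CPM in Δ/Δ, led by *Lyz2*, with 0 of 7 tested called (edgeR, DESeq2 and limma-voom; 3 at an unadjusted p under 0.05 and 2 at an adjusted p under 0.05, all higher). Plasmacytoid markers summed to 225 to 243 CPM and 245 to 295 CPM, led by *Bst2* in all but Δ/Δ 3, and *Ccr9* was called higher of 6 tested (log2 fold change 1.41, edgeR adjusted p = 0.00333), while DESeq2 called 2. *Bst2* is also on the list of interferon targets and was not called, at a log2 fold change of −0.40. The median log2 fold change was −0.20 for the cDC1 list and 0.94, 0.32 and 0.19 for the cDC2, monocyte and plasmacytoid lists. The part of any of these cells in the Schlafen values was not tested.

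Markers of neutrophils, T and NK cells, B cells and basophils left few reads. Neutrophil markers summed to at most 13.4 CPM, led by *S100a9* in all but Δ/Δ 2, with *Ly6g* and *Elane* at 0 in every library. T and NK cell markers summed to at most 3.97 CPM, led by *Lck*, and B cell markers to 13.7 to 53.7 CPM, led by *Cd79b* by the mean of the 6 libraries but not in Δ/Δ 2 or 3. Basophil and mast cell markers summed to at most 1.26 CPM in fl/fl and to 1.10, 16.8 and 2.47 CPM across Δ/Δ 1 to 3, led by *Prss34* in Δ/Δ and by *Gata2*, named after its values were seen, in fl/fl. DESeq2 called 3 of them higher (*Mcpt8*, *Cpa3* and *Prss34*, named after their values were seen), while edgeR tested 1 of the 6 and called 0, with 0 at an unadjusted p under 0.05, and limma-voom called 0. Sums of the T and NK cell, B cell and basophil lists were highest in Δ/Δ 2. Within Δ/Δ that library held the lowest CPM of *Slfn8* and *Slfn9* and the highest of *Slfn2* and *Slfn3*, with *Slfn1* and *Slfn5* in between. Any relation of these sums to the Schlafen values was not tested.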

How the data were processed

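Per the methods and labels, the authors aligned 75-base read pairs from directional poly(A) libraries to mm10 with STAR 2.6.1a and Gencode vM19 and deposited STAR's raw counts of unique reads per gene, not normalized or pooled. STAR's tallies of reads outside genes were left out (5.33 to 5.76% multimapping, 1.81 to 1.98% ambiguous). Identifiers were named with GENCODE M21, which held 54495 of 54532. Counts were tested with edgeR 4.0.16 in R 4.3.3 (filterByExpr with minimum count 10 and total 15, TMM, glmQLFTest on genotype), tested on simulated counts first. Alternatives used DESeq2 1.42.0, its size factors, limma 3.58.1 (voom), other filters, a replicate block and 1 library left out. Intervals and floors of 3 reads cover counting error only, since PCR copies were not told apart. Sequences came from RefSeq GRCm38.p6 (promoters matched for 7 of 7 members) and BLAST+ 2.17.0 aligned pseudogenes. Members and lists were chosen with earlier results of these data known. Named genes are the members, other *Slfn* genes, *Jun*, *Junb*, called list genes (the 5 largest changes where over 10), leading markers, nearest neighbours and nearest profiles. Others are said to be chosen after their values were seen.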

Additional observations from a re-analysis of the deposited data

How the results depend on the processing

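All 6 tested members kept a log2 fold change below 0 under each alternative run, except that the stricter filter dropped *Slfn1*, and *Slfn3* stayed called in each. With 1 library left out, log2 fold changes ran from −0.62 to −0.51 for *Slfn2*, −0.31 to −0.11 for *Slfn5* and −2.72 to −1.54 for *Slfn9*. With no filter *Slfn8* (−0.47) and *Slfn9* (−1.93) passed an adjusted p of 0.05, and *Slfn8* did by DESeq2 (−0.46). Members called numbered 1, 2 with no filter, 2 by adjusted p alone, and 1 to 2 with 1 library left out.

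Genes called numbered 240, 433 by DESeq2, 500 by adjusted p alone and 74 (without fl/fl 1) to 579 (without Δ/Δ 1) with 1 library left out; 80 and 154 without fl/fl 2 and 3, and 370 without Δ/Δ 2. Interferon targets called were 13, and 2 to 16 with 1 left out. Interferon signalling genes called were 2, and 0 to 3. Locus neighbours called were 0, with 2 by DESeq2, 1 with no filter (*Wfdc17*), 1 by adjusted p alone and 0 to 1 with 1 left out. The cause of these differences was not tested.

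Deviations of same-numbered libraries correlated at 0.091, −0.15 and 0.20, beside −0.22 to 0.15 between libraries of different number. Whether same-numbered libraries share more than a number is not stated. The replicate block gave 207 genes, 1 member, 8 targets, 1 signalling gene (*Usp18*, not *Irf7*) and 1 neighbour (*Wfdc17*) called.

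Of 51 further results 5 changed direction in some fit without 1 library, each with an adjusted p over 0.05: *Slfn5os* (−0.14 to 0.45), *Lck* (−0.23 to 0.93), *Cd79b* (−0.53 to 0.20) and *Rad51d* (−0.038 to 0.071), and *AA465934* (−0.39 to 0.095). Depth limits *Slfn4*, whose pooled counting intervals overlap.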

Other observations

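Some genes were read in 1 genotype only. With a limit of 0.5 CPM set after the data were seen, 8 genes had no reads in any fl/fl library and at least that level in each Δ/Δ library, and 3 genes the reverse. *Ifi44l* (75.8, 44.9 and 43.3 CPM across Δ/Δ 1 to 3) and *Zfp990* (20.4, 36.4 and 40.7 CPM) had the highest CPM among the former and *Cltrn* (2.51, 1.71 and 3.52 CPM in fl/fl 1, 2 and 3) among the latter. On chromosome 11, which holds the Schlafen cluster, there was 1 such gene, *BC018473*, 33.54 Mb from the outermost Schlafen gene. The mice had a mixed background, and strain was not tested.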
